A study of Arabidopsis thaliana with 12 samples.

Results

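V1200R/cc line 15 and V1200R/cc line 9 are independent transformants of the same construct, and their transcriptomes were compared directly, library by library. All libraries whose titles name either line were used, which gave 2 libraries of line 15 and 2 of line 9, 4 of the 12 libraries in the series. The comparison asks how far plants that received the same transgene resemble each other, and where they do not. Every nuclear gene and transposable element (TE) was considered, and 22710 genes and 865 TEs reached the minimum level for testing, a TPM (transcript abundance scaled to a fixed total per library) of 0.5 in at least 2 of the 12 libraries.

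The series holds RNA-seq of whole Arabidopsis seedlings grown for 10 days at 22 °C in long days, with 2 libraries in each of 6 groups. Col-0 is the wild type. The mutant called cc carries T-DNA insertion alleles of both chromomethylase genes, cmt2-7 and cmt3-11. CMT2/cc lines 1 and 19 are cc plants with a genomic CMT2 fragment that has its own promoter and a FLAG tag, and V1200R/cc lines 9 and 15 are cc plants with the same fragment carrying the V1200R change. All 4 transgenic lines therefore share the cc background, the native CMT2 promoter and the vector, whose selection marker is driven by the promoter of the seed gene OLE1 and contains OLE1 coding sequence. The insertion sites and copy numbers of the transgenes, and whether the replicates came from separate plantings, are not given in the sources used here, so the p-values measure only the spread between these libraries.

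CMT2 and CMT3 are plant DNA methyltransferases of heterochromatin. They are recruited by methylated histone H3, and the methyl groups that they place on cytosine in turn keep transposons silent. CMT3 methylates cytosine in the CHG context and CMT2 mainly in the CHH context, where H stands for A, C or T. The arginine that lets CMT3 read CHG is a valine in Arabidopsis CMT2, and V1200R puts the arginine back. The change is shown here by the mutagenic primer beside the reference CMT2 sequence at the same place (chr4:10420449-10420472 of TAIR10, plus strand, coding sequence), with the altered codon in capitals.
V1200R-F primer: gttctaacaCGGccaacatgccac
CMT2 genome: gttctaacaGTCccaacatgccac

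Depth was similar across the series, at between 929522229 and 1452952086 aligned bases per library as implied by coverage and FPKM. V1200R/cc line 9 had 1061115862 and 1452952086 aligned bases, and line 15 had 1286799870 and 1219629991. The CMT2 transcript was at 1.70 and 1.99 TPM in cc and at 13.3 and 15 TPM in Col-0. The CMT3 transcript was not lower in the cc libraries, at 16.4 and 14.0 TPM, than in Col-0, at 12.9 and 11.5 TPM, so its level does not check that label.

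CMT2 itself, the gene carried by the transgene, was read at 112 and 127 TPM in line 9 and at 146 and 159 TPM in line 15. Both line 15 libraries were above both line 9 libraries, and above the highest of the other 8 libraries at 123 TPM. The means were 119 ± 10.4 TPM and 153 ± 8.89 TPM (SD, n = 2), a log2 fold change of 0.36 (SE 0.09, 95% interval 0.15 to 0.56). The difference had an unadjusted p of 0.0038 and did not pass the adjustment over all tested features (adjusted p = 0.53, limma). CMT3 was level between the lines, at 6.24 and 6.29 TPM in line 9 and 5.93 and 6.15 TPM in line 15. Its log2 fold change was -0.05, with a 95% interval from -0.33 to 0.24. Both lines were below the cc libraries, at 16.4 and 14.0 TPM, and within the 4.72 to 7.02 TPM of the CMT2/cc libraries. The reason for this was not tested. A read from the transgene cannot be told apart from a read of the endogenous CMT2 locus in these tables.

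The 2 lines were close to each other over the transcriptome. On log2(TPM + 0.5), a line 9 library correlated with a line 15 library at r between 0.9801 and 0.9816 across features, where r was 0.9822 between the line 9 replicates and 0.9819 between the line 15 replicates. These correlations run across genes, which are not independent replicates, and describe the libraries only. The median log2 fold change over all tested genes, line 15 minus line 9, was 0.02, and the central range of genes, from the 5th to the 95th percentile, ran from -0.31 to 0.39. Over TEs the median was 0.00 and that range ran from -0.87 to 0.92. The median half-width of the 95% interval was 0.29 for a gene and 0.87 for a TE, so that a change in a typical TE had to be considerably larger to be resolved.

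With limma's adjusted p under 0.05 and a log2 change of 1 or more in either direction required for a call, 2 genes were called higher in line 15 (0.00881% of genes tested) and 3 were called lower (0.0132%). No TE was called in either direction (0% in each). At an unadjusted p below 0.05, 861 genes were higher (3.79%) and 672 lower (2.96%), and 28 TEs were higher (3.24%) and 32 lower (3.7%). In 4690 genes both line 15 libraries lay above both line 9 libraries (20.7%), and in 3578 they lay below (15.8%). In the same fit, CMT2/cc line 19 against CMT2/cc line 1 gave 14 genes higher (0.0616%) and 10 lower (0.044%), with 11 TEs higher (1.27%) and 6 lower (0.694%). None of the 5 genes called between the V1200R/cc lines was called between the CMT2/cc lines. The 2 genes called higher in line 15 were listed at 0 in every CMT2/cc library, so they could not be called there. With calls at such small shares of genes, the lack of shared calls carries no result. Whether the numbers of calls differ between the constructs was not tested. Against the shared cc libraries, 210 genes were higher (0.925%) and 333 lower (1.47%) in line 9, and 352 were higher (1.55%) and 376 lower (1.66%) in line 15. For TEs, 10 were higher (1.16%) and 159 lower (18.4%) than cc in line 9, and 16 were higher (1.85%) and 164 lower (19%) in line 15. Those counts use the same cc libraries, and the direct comparison called 5 genes.

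**Figure D1:**
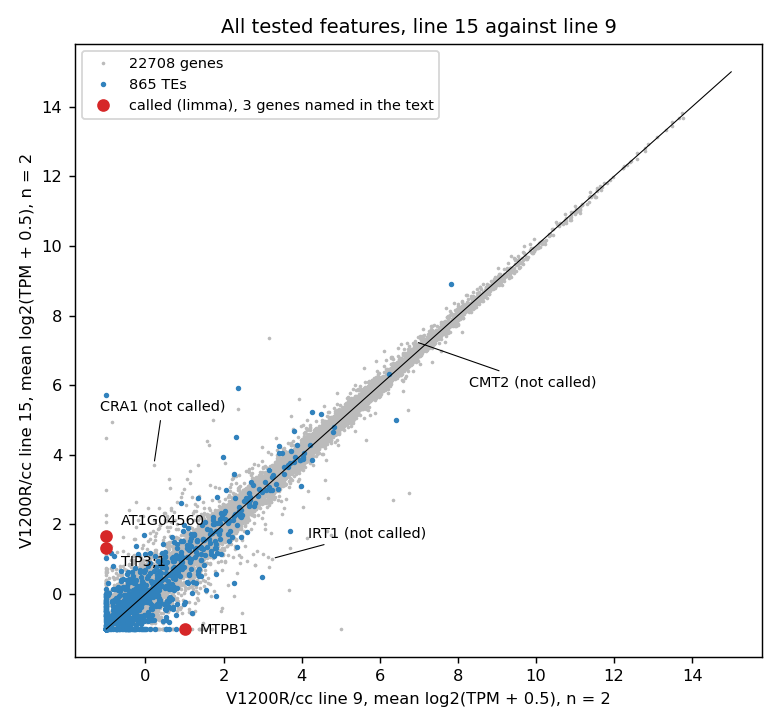
Mean log2(TPM + 0.5) of the 2 V1200R/cc line 9 libraries (x axis) and the 2 line 15 libraries (y axis) for 22708 tested genes (grey) and 865 tested TEs (blue), with the diagonal as a line and 3 of the 5 called genes in red. Most features sit along the diagonal, these called genes sit on the edges because one of the lines is listed at 0, and CMT2, CRA1 and IRT1 are named for reference although they were not called.

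Some features were listed at 0 in both libraries of one line and at 10 TPM or more in both of the other, and 4 of them that were not called are named here after their values were seen. AT1G06000, which overlaps another gene, was at 0 in line 9 and at 22.1 and 21.3 TPM in line 15. SADHU1-1 (AT2G10410), a TE gene, and AT2TE16945, the TE listed on the same interval, were each at 0 in line 9 and at 52.5 and 51.1 TPM in line 15. The pseudogene AT5G02244 was at 31.5 and 32.4 TPM in line 9 and at 0 in line 15. Their adjusted p lay between 0.52 and 0.71 (limma), and each was also listed at 0 in between 1 and 3 of the other 8 libraries, within groups whose second library was well above 0. In a fit of the 4 V1200R/cc libraries alone all 4 were called, whereas MTPB1, AT1G04560 and TIP3;1 were not (adjusted p = 0.33, 0.45 and 0.52, limma).

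MTPB1 (AT2G29410, chromosome 2 from 12616378 to 12617987, plus strand), annotated as a metal tolerance protein of the zinc transporter family, was at 1.36 and 1.70 TPM in line 9 and listed at 0 in both line 15 libraries (adjusted p = 0.041, limma). The call was lost without any one of the 4 libraries (adjusted p between 0.10 and 0.16). The other 8 libraries held 1.02 to 1.77 TPM, so line 15 was the one apart from the rest. MTPB1 overlaps GSTU7 (AT2G29420), a glutathione transferase gene that was level between the lines at 37.4 and 36.5 TPM in line 9 and 41.0 and 36.0 TPM in line 15. How the authors' counting assigned reads to overlapping features and to strand is not stated, so the assignment of reads between MTPB1 and GSTU7 is uncertain.

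The 2 genes called higher in line 15 were both listed at 0 in every library outside that line. They reached the minimum level for testing only through the line 15 libraries, so they had to differ to be tested, and their calls are given as a description. AT1G04560 (chromosome 1 from 1244947 to 1246059, plus strand), a member of the AWPM-19-like membrane protein family, was listed at 0 in both line 9 libraries and in the other 8, and at 3.41 and 2.06 TPM in line 15 (adjusted p = 0.0166, limma). It was the only called gene that overlaps no other feature. TIP3;1 (AT1G73190, chromosome 1 from 27521944 to 27523332, plus strand), the aquaporin of protein storage vacuoles in seeds, was listed at 0 in 10 libraries and at 1.49 and 2.66 TPM in line 15 (adjusted p = 0.0436, limma). It overlaps AT1G73200, which was level at 15.5 and 15.9 TPM in line 9 and 16.7 and 17.4 TPM in line 15. The call of AT1G04560 was lost without line 9 replicate 1 (adjusted p = 0.12) and without line 15 replicate 1 (0.059), and TIP3;1 kept its call only without line 15 replicate 1 (0.031 there, and 0.11 to 0.20 without each of the others).

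Most other seed genes had higher values in line 15, as TIP3;1 did. Developing seeds fill with storage proteins, coat their oil bodies with oleosins and make LEA proteins before drying, and these transcripts are largely cleared after germination. Of the 12 seed markers, 10 had both line 15 libraries above both line 9 libraries, where 20.7% of all tested genes did. The 2 shares are not alike, because only 8 of the markers were tested and 5 of those passed only through line 15. The count is a description of these markers, and for SESA1, SESA3 and SESA4, given below, the order rests on very low values. CRA1 (AT5G44120), a 12S cruciferin storage protein, was at 0.12 and 1.68 TPM in line 9 and at 11.8 and 13.6 TPM in line 15, with 0 to 1.59 TPM in the other 8 libraries. OLEO1 (AT4G25140), an oleosin, was at 0 and 0.94 TPM in line 9 and at 3.98 and 8.23 TPM in line 15, and at 0.21 TPM or less elsewhere, and it overlaps another listed feature, as does OLEO2. PER1 (AT1G48130), a seed peroxiredoxin, was at 0 and 1.66 TPM in line 9 and at 4.32 and 5.99 TPM in line 15. For these genes line 15 was above every other library, and line 9 replicate 2 was above line 9 replicate 1.

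The further members had lower levels. OLEO2, another oleosin, was at 0 and 0.93 TPM in line 9 and at 2.08 and 5.01 TPM in line 15, and CRU3, a further cruciferin, was at 0 and 0.24 TPM against 0.71 and 3.96 TPM. GEA6 and EM1, both LEA proteins, were at 1.01 and 0.97 TPM against 3.66 and 4.32 TPM, and at 0 and 0.33 TPM against 0.98 and 0.89 TPM. The albumin genes SESA1, SESA2, SESA3 and SESA4 were at 1.18 TPM or less in all 4 libraries, and CRU2 was at 0 in all 4. SESA1 was at 0 and 0.07 TPM in line 9 and at 0.17 and 1.18 TPM in line 15. SESA3 was at 0 in both line 9 libraries against 0.08 and 0.33 TPM, and SESA4 at 0 and 0.16 TPM against 0.18 and 0.37 TPM. For OLEO2, GEA6 and EM1 line 15 was above every other library. CMT2/cc line 19 replicate 1 was at 1.40 TPM for CRU3 and 0.77 TPM for SESA1, above line 15 replicate 1 at 0.71 and 0.17 TPM. For SESA3 it was at 0.53 TPM, above both line 15 libraries at 0.08 and 0.33 TPM. Only 8 of the 12 markers were tested, and 5 of those passed the minimum level only because of line 15, so no count or median over the tested members is given. None was called in the full set of libraries, and the smallest adjusted p was 0.21, for OLEO1 (limma).

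Summed over the 12 markers, the level was 1.13 and 6.98 TPM in line 9 and 28.0 and 44.4 TPM in line 15, against 0.19 to 5.80 TPM in the other 8 libraries, where CMT2/cc line 19 replicate 1 was the highest. OLEO1 reads may include reads of the vector's marker, which all 8 transgenic libraries carry, and the part of the marker in the OLEO1 value was not tested. Without OLEO1 the sums were 1.13 and 6.04 TPM in line 9 and 24.0 and 36.2 TPM in line 15. In RNA from whole seedlings, more cells or seed remnants that hold these transcripts and more transcript per cell cannot be told apart. The defining markers of other organs moved little beside them. The 10 root markers summed to 2049 and 2310 TPM in line 9 and to 2468 and 2329 TPM in line 15. The 8 leaf markers summed to 59880 and 57680 TPM against 57310 and 57830 TPM, and the 6 flower markers to 4.55 and 4.73 TPM against 4.70 and 3.92 TPM. Most of the flower sum was SEP3, at 3.66 and 3.38 TPM in line 9 and 3.20 and 3.06 TPM in line 15. SEP1, PI and AP3 were at 1.01 TPM or less in all 4 libraries. AG and SEP2 were at 0 in all 4, and SEP2 was also at 0 in the other 8. Most of the root sum was PYK10, a root beta-glucosidase, at 1921 and 2148 TPM in line 9 and 2335 and 2205 TPM in line 15. Of the 10 root markers, 7 had log2 fold changes below 0, and the median was -0.09.

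Genes of seed type outside the list, named after their values were seen, ran the same way. AT4G21020, a LEA family protein, was at 0 and 0.83 TPM in line 9 and at 2.19 and 2.89 TPM in line 15, and AT2G28490, a cupin of the storage protein superfamily, was at 0 in both line 9 libraries and at 1.18 and 0.96 TPM in line 15. ICL (AT3G21720), the isocitrate lyase of the glyoxylate cycle by which seedlings use stored oil, was at 9.93 and 9.35 TPM in line 9 and 26.6 and 17.7 TPM in line 15, but reached 19.7 TPM in Col-0, so that it did not set line 15 apart from the wild type. Which genes were called higher in line 15 depended on the line 9 library that was left out. The genes that gained a call without line 9 replicate 2 were not limited to seed genes, and SUR1, a glucosinolate gene, was among them.

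**Figure D2:**
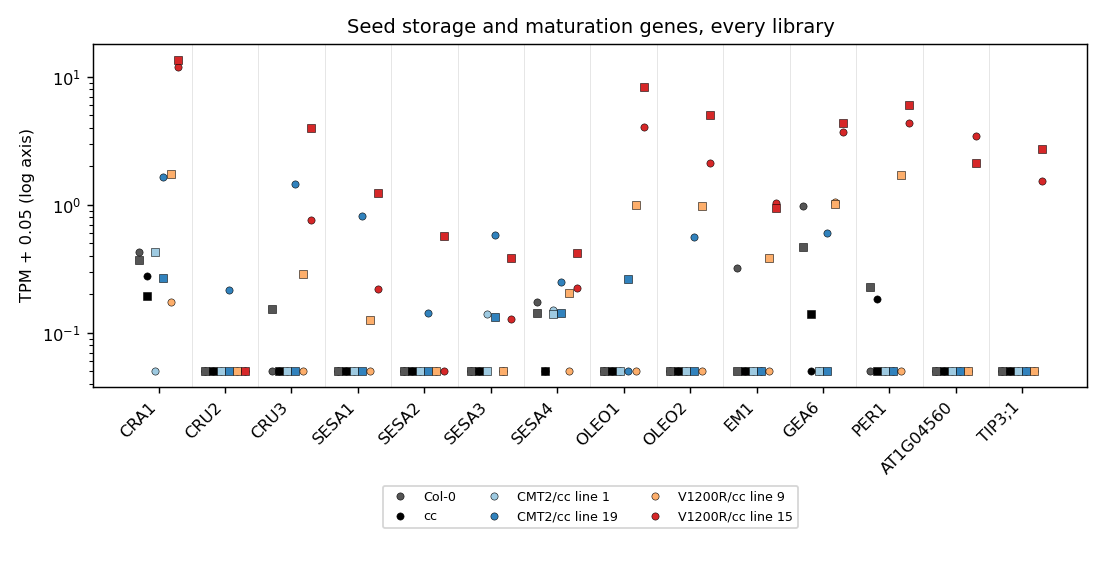
Level of the 12 seed markers, AT1G04560 and TIP3;1 in every library (y axis, TPM + 0.05, log axis; circles are replicate 1 and squares replicate 2; colours are the 6 groups). Points of line 15 (red) lie at the top for CRA1, OLEO1, OLEO2 and PER1. For several genes line 9 replicate 2 and CMT2/cc line 19 replicate 1 lie between line 15 and the rest. For CRU3, SESA1 and SESA3, CMT2/cc line 19 replicate 1 lies above line 15 replicate 1. Points at the bottom are listed at 0.

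The promoters of AT1G04560, CRA1 and TIP3;1 are shown because these genes separate line 15 from the other libraries. Each sequence is the 250 bases of TAIR10.1 before the gene start that the authors deposited. In it, 2 motifs of seed genes are in capitals wherever they occur on either strand. One is the RY element (CATGCA), bound by B3 factors of seed maturation, and the other is the core of the abscisic acid response element, ABRE (ACGTG). Neighbouring or overlapping hits run together.
AT1G04560: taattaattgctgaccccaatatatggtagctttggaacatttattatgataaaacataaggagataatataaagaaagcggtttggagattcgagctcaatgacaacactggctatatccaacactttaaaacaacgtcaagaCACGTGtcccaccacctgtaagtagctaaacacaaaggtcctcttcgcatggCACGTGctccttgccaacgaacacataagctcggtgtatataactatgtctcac
CRA1: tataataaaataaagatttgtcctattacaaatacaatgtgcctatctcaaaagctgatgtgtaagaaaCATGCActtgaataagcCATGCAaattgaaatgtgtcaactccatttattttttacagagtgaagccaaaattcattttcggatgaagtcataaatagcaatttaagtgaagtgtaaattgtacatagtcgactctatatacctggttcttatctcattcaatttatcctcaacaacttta
TIP3;1: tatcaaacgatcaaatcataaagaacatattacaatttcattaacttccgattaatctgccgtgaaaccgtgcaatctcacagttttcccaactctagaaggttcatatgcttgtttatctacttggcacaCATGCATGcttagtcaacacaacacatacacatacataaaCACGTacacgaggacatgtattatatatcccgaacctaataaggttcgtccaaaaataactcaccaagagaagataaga
The intervals are chr1:1244697-1244946 on the plus strand, chr5:17758337-17758586 on the minus strand and chr1:27521694-27521943 on the plus strand. AT1G04560 held 4 hits of the ABRE core over both strands and none of RY, CRA1 held 2 of RY and none of the ABRE core, and TIP3;1 held 2 of RY and 1 of the ABRE core. RY occurred in 8 of the 12 seed marker promoters and in 8.43% of the 27444 promoters of protein-coding genes, and the ABRE core in 9 of 12 and in 22.9%. A match is a description of these letters and not a measured binding site.

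Most TEs that were higher in cc than in Col-0 were low in both lines, and the remainders differed at a few loci. In cc, 158 TEs (18.3% of TEs tested) and 272 genes (1.2%) were called higher than in Col-0. That contrast is between other groups, although the V1200R/cc libraries entered the minimum level and the shared estimate of spread. The 158 TEs summed to 899 and 892 TPM in cc and to 21.8 and 18.2 TPM in Col-0, and to 162 and 168 TPM in line 9 and 169 and 174 TPM in line 15. Of them, 140 were at 1 TPM or less in both line 9 libraries and 137 in both line 15 libraries. Their median log2 fold change, line 15 minus line 9, was 0.00, the same as over all TEs, and both line 15 libraries lay above line 9 for 17 and below it for 10, where the shares over all TEs were 16.2% and 13.4%. The 272 genes had a median of 0.00 beside 0.02 over all genes, with 43 above and 22 below without overlap, where the shares over all genes were 20.7% and 15.8%. At an unadjusted p below 0.05, 18 of them were higher in line 15 and 4 lower, where 3.79% and 2.96% of all genes were. Of the 158 TEs, 56 were at 0 in all 4 V1200R/cc libraries, as were 92 of the 272 genes. Such features pull the medians to 0.00 and cannot lie above or below without overlap. None of the TEs or genes was called.

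Copia11 and Copia47 were higher in line 15 than in line 9. These LTR retrotransposons, and Copia89 and Copia18A, are the elements that the study measured with primers, and each is listed as a TE and as a TE gene on overlapping intervals of the same strand, so the TPM of the pair were also added. The sum for Copia11 (AT3TE64435, chromosome 3 from 15919028 to 15924078, minus strand, with AT3G44215) was 0.35 and 0.15 TPM in line 9 and 2.30 and 1.94 TPM in line 15. It was 53.4 and 58.8 TPM in cc and 0.02 and 0.03 TPM in Col-0, so that line 9 held 0.451% of the cc level and line 15 held 3.78%. The log2 fold change between the lines was 1.81 (SE 0.17, 95% interval 1.42 to 2.20, adjusted p = 0.0124, limma), and the call was lost without line 15 replicate 1 (adjusted p = 0.053). As listed separately, AT3TE64435 and AT3G44215 had log2 fold changes of 1.3 and 1.34 and were not called (adjusted p = 0.077 and 0.082, limma).

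For Copia47 (AT4TE50435 with AT4G20365), the sum was 2.94 and 2.05 TPM in line 9 and 6.57 and 8.31 TPM in line 15, or 6.93% and 20.6% of the cc level. The log2 fold change was 1.41 (SE 0.15, 95% interval 1.07 to 1.76, adjusted p = 0.0253, limma), and the call was lost without line 15 replicate 2 (adjusted p = 0.11). Listed separately, the TE was at 5.94 TPM in line 15 replicate 1 and 0.22 TPM in replicate 2, and the TE gene was at 0.63 and 8.10 TPM, so the replicates agree only in the sum. The other elements did not show such a difference. Copia89 (AT1TE44380 with AT1G36185) was at 0.26 and 0.08 TPM in line 9 and at 0.15 and 0.03 TPM in line 15, with a log2 fold change of -0.18 and a 95% interval from -0.70 to 0.33. Copia18A (AT5TE50260 with AT5G35935) stayed near its cc level in both lines, at 75.0% in line 9 and 81.4% in line 15, with values of 4.09 and 3.90 TPM against 4.06 and 4.61 TPM and a log2 fold change of 0.10 (95% interval -0.20 to 0.41). The choice to add each pair was made with the elements' levels in each group known.

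The context in which V1200R is meant to act is shown by the 120-base window of Copia11 that holds the most CHG sites (chr3:15923456-15923575, minus strand), with its 12 CHG sites on this strand in capitals.
AT3TE64435: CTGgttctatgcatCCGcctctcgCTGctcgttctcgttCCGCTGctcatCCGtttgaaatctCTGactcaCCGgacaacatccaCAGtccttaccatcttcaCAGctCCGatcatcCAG
CHG densities were counted on the plus strand of the reference, although Copia11 and Copia18A are listed on the minus strand. Densities on the minus strand can differ and were not calculated. Over its whole length of 5051 bases, Copia11 held 3.25 CHG sites per 100 bases. Copia47 held 5.20, Copia89 4.32 and Copia18A 3.54, beside a median of 1.38 over the 11659 annotated TEs of at least 500 bases. By this plus-strand count, Copia18A and Copia89 had CHG densities between those of Copia11 and Copia47. Copia18A was the element that stayed highest relative to cc, and Copia89 the one that was lowest in line 15. Whether CHG density has a part in these levels was not tested.

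A group of near-identical genes ran like the Copia remainders, and these loci were chosen after their values were seen. AT3G54730, OFP9 (AT4G04030) and AT2G19850, each annotated as a transcription repressor and overlapping no other feature, share 97.96% to 99.02% of aligned bases, so reads could be split among them. OFP9 was at 0.08 and 0.04 TPM in line 9 and at 0.55 and 1.39 TPM in line 15. The sum of the 3 genes was 0.12 and 0.20 TPM in line 9 and 1.47 and 4.08 TPM in line 15. That sum was 94.6 and 95 TPM in cc, 70.6 and 77.5 TPM in CMT2/cc line 19, and 0.46 TPM or less in Col-0 and CMT2/cc line 1. None of the 3 was called (adjusted p between 0.28 and 0.56, limma), although AT3G54730 and OFP9 were called higher in line 15 without line 15 replicate 1. The TE genes AT4G09455 and AT5G27925, each overlapping a listed TE, were also higher in line 15 (adjusted p = 0.19 and 0.16, limma). The first was at 0.02 and 0 TPM against 0.94 and 1.18 TPM. The second was at 0.85 and 0.68 TPM against 3.29 and 3.20 TPM. These picked loci do not stand for TEs at large. Among TEs with a log2 fold change of at least 1 without overlap of the lines, 19 were higher and 26 lower in line 15. AT5G45570, an Ulp1 protease family gene at 33.5 and 36.2 TPM in cc, was at 0.19 and 0 TPM in line 9 and 0.85 and 0.50 TPM in line 15.

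**Figure D3:**
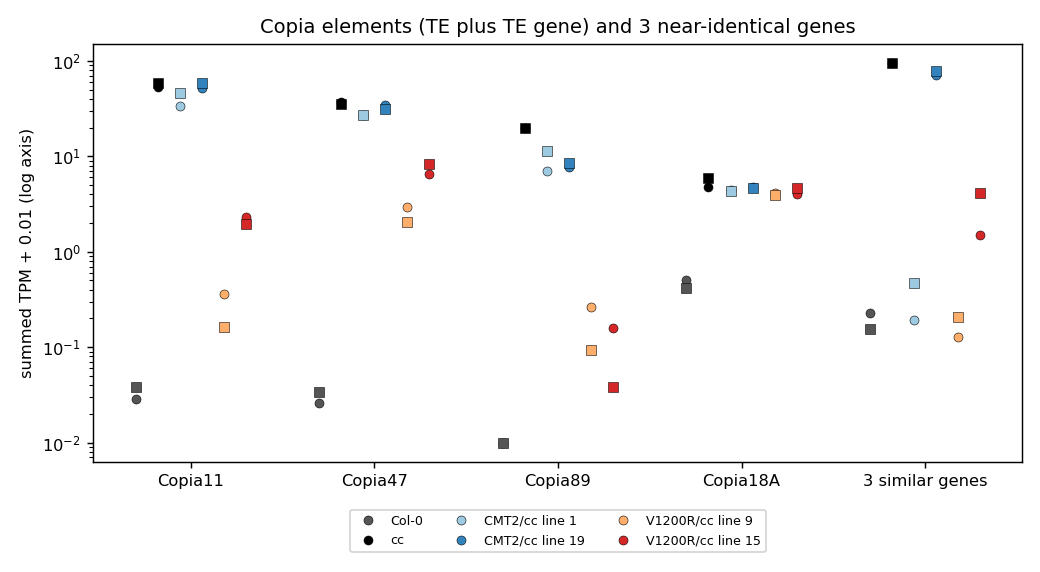
Summed TPM of 4 Copia elements (TE plus TE gene) and of AT3G54730, OFP9 and AT2G19850 (labelled 3 similar genes) in every library (y axis, TPM + 0.01, log axis; circles are replicate 1 and squares replicate 2; colours are the 6 groups). For Copia11, Copia47 and the similar genes line 15 (red) lies between line 9 (orange) and cc (black), while for Copia89 and Copia18A the values of the lines overlap.

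Several iron uptake genes had their lowest values in line 15, and none was called. Arabidopsis roots take up iron by reducing it at the surface with the reductase FRO2 and importing it through IRT1, under the bHLH factor FIT, annotated as FRU. IRT1 (AT4G19690) was at 11.6 and 6.83 TPM in line 9 and at 2.68 and 0.79 TPM in line 15, and at 13.9 to 118 TPM in the other 8 libraries. Both lines were therefore below every other library, and line 15 was below line 9 (log2 fold change -2.22, SE 0.43, 95% interval -3.19 to -1.24, adjusted p = 0.33, limma). FRO2 (AT1G01580) was at 3.97 and 2.84 TPM in line 9 and 1.18 and 1.02 TPM in line 15, against 4.11 to 43.9 TPM elsewhere (log2 fold change -1.27, adjusted p = 0.45, limma). CYP82C4 (AT4G31940), a hydroxylase of iron-mobilising coumarins, was at 2.15 and 0.87 TPM in line 9 and 0.44 and 0 TPM in line 15, where the others held 1.54 to 61.8 TPM.

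The rest of the list was mixed. AT2G30766 was at 3.44 and 2.52 TPM in line 9 and 0.97 and 1.19 TPM in line 15, and AT1G47400 was at 0.70 and 0.55 TPM against 0.04 and 0.08 TPM, while FRU was at 4.77 and 5.85 TPM against 4.45 and 3.53 TPM. PYE and BTS, regulators of iron balance, were level, with log2 fold changes of 0.00 and 0.03. FER1, which encodes the iron store ferritin, was at 375 and 429 TPM in line 9 and 513 and 452 TPM in line 15. Of 18 genes, 17 were tested, and their median log2 fold change was -0.26 beside 0.02 over all genes. Line 15 lay below line 9 without overlap in 10 of the 17, where 15.8% of all genes did, and above it in 1. At an unadjusted p below 0.05, 6 were lower and none higher, and none was called. The iron median was -0.12 over features with a mean of at least 1 TPM, -0.14 over features that overlap nothing and -0.16 without line 9 replicate 1. The 10 root markers had log2 fold changes between -0.39 and 0.16, and whether root content has a part in the iron values was not tested.

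**Figure D4:**
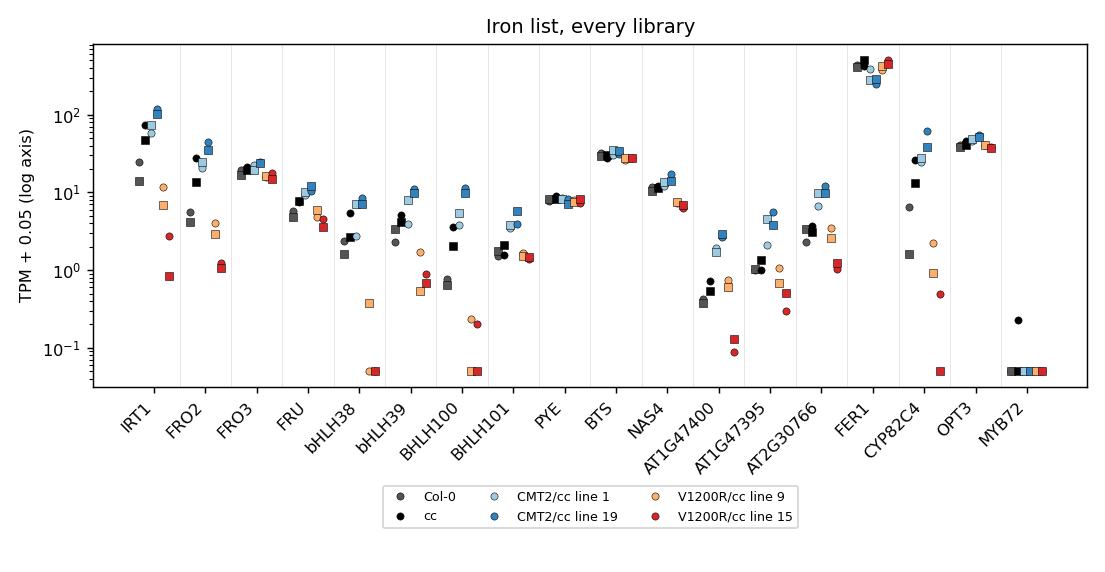
Level of the 18 genes of the iron list in every library (y axis, TPM + 0.05, log axis; circles are replicate 1 and squares replicate 2; colours are the 6 groups). The line 15 points (red) are the lowest for IRT1, FRO2, CYP82C4, AT2G30766 and AT1G47400, with line 9 (orange) below or among the remaining groups, while PYE, BTS and OPT3 are level.

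Several defence and stress genes had higher values in line 15, and none was called. PDF1.2 (AT5G44420), a defensin induced by jasmonate and ethylene, was at 1.35 and 0.74 TPM in line 9 and 10.8 and 8.15 TPM in line 15 (log2 fold change 2.70, SE 0.59, adjusted p = 0.43, limma). It ranged from 1.05 to 25.7 TPM in the other libraries, with the highest in Col-0, so line 15 was within their range and line 9 replicate 2 below it. Its close copies PDF1.2b and PDF1.2c, which may share reads with it, were at 0 and 0 TPM against 2.47 and 1.41 TPM, and at 0.40 and 0 TPM against 5.20 and 1.21 TPM. VSP1, a storage protein induced by jasmonate, was at 4.66 and 11.7 TPM against 14.4 and 12.7 TPM. Over the 29 tested jasmonate genes the median was 0.03, with 5 higher and 3 lower at an unadjusted p below 0.05, so the defensins did not stand for the list.

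WRKY33, a WRKY factor of pathogen and wound responses, was at 94.7 and 90.1 TPM in line 9 and 163 and 130 TPM in line 15 (log2 fold change 0.65, SE 0.14, adjusted p = 0.42, limma). It was at 30.2 to 57.3 TPM in the other 8 libraries, so both lines were above them and line 15 was the higher. WRKY33 overlaps another listed feature. WRKY53, WRKY40 and ERF5 had log2 fold changes of 0.58, 0.47 and 0.49. Over the 25 rapid stress and touch genes the median was 0.25, and 21 had a log2 fold change above 0, where 54.5% of all genes had one. Of the 25, 9 lay without overlap above line 9 and none below, where 20.7% and 15.8% of all genes did. Over the 19 WRKY factors the median was 0.24 and over 15 cold genes 0.22. These medians depended on single libraries. The rapid stress median was 0.46 without line 9 replicate 1, 0.10 without line 9 replicate 2 and 0.47 without line 15 replicate 2. The WRKY median was 0.14 without line 9 replicate 2, 0.09 without line 15 replicate 1 and 0.36 without line 15 replicate 2, and the cold median was 0.09 without line 9 replicate 1 and 0.34 without line 9 replicate 2. CBF1, which activates cold genes, was at 1.24 and 1.14 TPM against 2.77 and 2.26 TPM, and LTI65, a dehydration and abscisic acid response gene, was at 1.36 and 3.10 TPM against 7.47 and 5.84 TPM. The 22 hypoxia genes had a median of 0.21, which turned to -0.04 without line 15 replicate 2 and rose to 0.39 without line 15 replicate 1. In that list, ADH1, alcohol dehydrogenase, was at 161 and 162 TPM in line 9 and at 174 and 243 TPM in line 15. None of the members of these lists was called.

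The growth and metabolism lists had medians between -0.18 and 0.19, beside 0.02 over all genes, and none of their members was called. All 18 auxin growth genes had a log2 fold change above 0, where 54.5% of all genes did, with a median of 0.19 (0.12 without line 15 replicate 1). Of them, 12 lay without overlap above line 9 and none below, where 20.7% and 15.8% of all genes did. Among them IAA29, an auxin response repressor, was at 1.79 and 1.94 TPM in line 9 and 5.04 and 4.47 TPM in line 15 (adjusted p = 0.69, limma). SAUR22, a growth-promoting small auxin up RNA, was at 3.21 and 2.44 TPM against 5.40 and 3.48 TPM (adjusted p = 0.72, limma). For both, line 15 was within the range of the other 8 libraries, which reached 5.47 and 5.74 TPM in Col-0. ASN1, the dark-induced asparagine synthetase of the sugar starvation list, was at 77.8 and 61.0 TPM against 137 and 116 TPM, while that list's median was 0.12 (0.07 without line 15 replicate 1). SWEET11, a sucrose exporter named after its values were seen, was at 156 and 164 TPM in line 9 and 208 and 211 TPM in line 15, against 134 to 171 TPM elsewhere (log2 fold change 0.39, SE 0.05, adjusted p = 0.079, limma). It overlaps a TE. Over 20 flavonoid genes the median was -0.18 (-0.07 without line 9 replicate 2), with 5 above 0, and GSTF12, which is needed for anthocyanin to reach the vacuole, was at 6.02 and 10.8 TPM in line 9 and 4.99 and 5.27 TPM in line 15.

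The methylation machinery was level. Of 35 genes 33 were tested, with a median of 0.04 and a range from -0.25 to 0.37. IBM1, the histone demethylase that keeps CHG methylation out of genes, was at 6.54 and 7.61 TPM in line 9 and 8.92 and 9.62 TPM in line 15 (log2 fold change 0.37, SE 0.11, adjusted p = 0.64, limma), within the 5.78 to 10.8 TPM of the other libraries. QQS, a gene controlled by methylation, was at 14.1 and 15.4 TPM against 13.1 and 16.0 TPM, and MRU1 was at 0 in all 4 libraries. MRD1, of the same list, was at 19.9 and 35.3 TPM in line 9 and at 20.8 and 0 TPM in line 15 (log2 fold change -3.05, SE 1.91, adjusted p = 0.83, limma), so its line 15 replicates did not resemble each other. Medians were 0.03 for photosynthesis, 0.04 for the circadian clock, 0.02 for heat shock, 0.05 for salicylic acid defence, 0.08 for phosphate and nitrate, -0.10 for glucosinolates, 0.00 for cell division and DNA damage and -0.08 for flowering time. In the heat list AT5G48570, an FKBP-type isomerase, and HSP90.1, a chaperone, were lower in line 15 without being called, at 11.7 and 14.4 TPM against 9.49 and 8.80 TPM and at 13.5 and 16.5 TPM against 12.1 and 11.2 TPM.

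**Figure D5:**
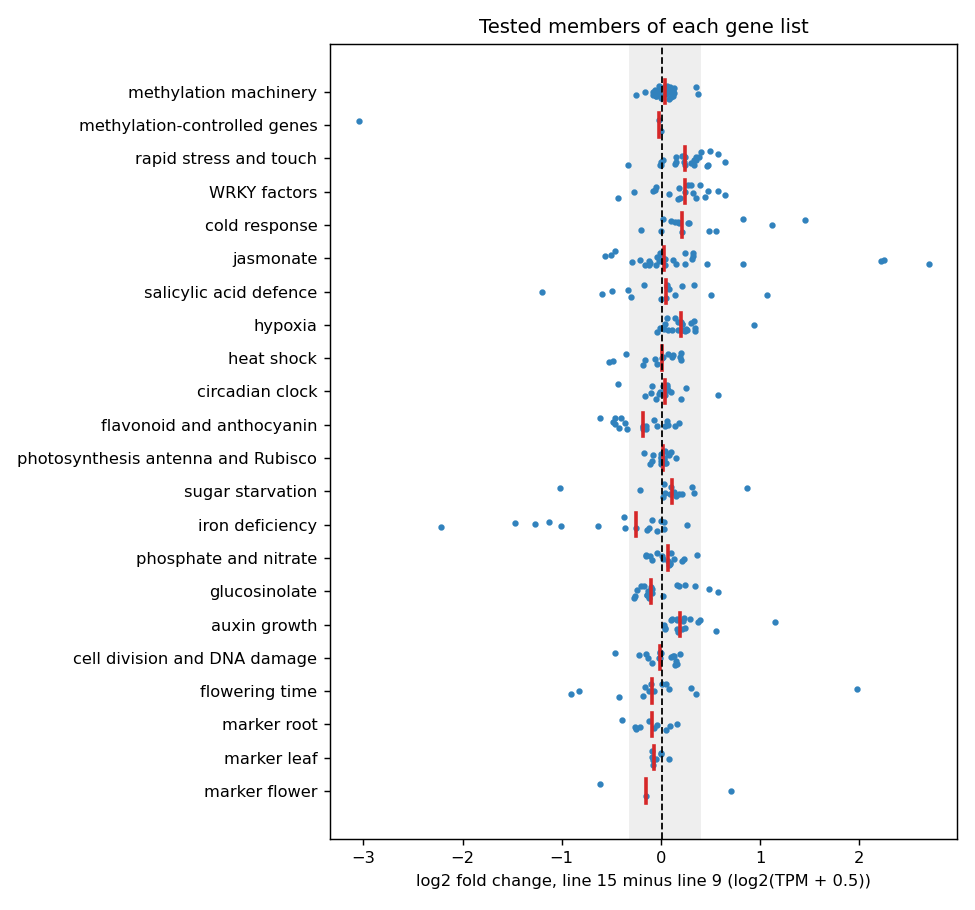
Log2 fold change, line 15 minus line 9, of each tested member of 22 gene lists (points) with the median of each list (red bar), where the dashed line is the median over all tested genes at 0.02 and the grey band is their range from the 5th to the 95th percentile. Most lists centre on the dashed line, the iron list has a tail to about -2.22 for IRT1, the list of methylation-controlled genes holds MRD1 at -3.05, and the jasmonate list has a tail to 2.70 for PDF1.2, with the seed list left out because its members passed the minimum level mostly through line 15.

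A position among the other libraries was read for the genes that differed by a log2 fold change of at least 1 without overlap. Of 152 such genes higher in line 15, both line 15 libraries were outside the range of the other 8 libraries and both line 9 libraries inside it for 22. The reverse held for 6, both lines were inside it for 39 and both outside it for 5. Of 84 lower in line 15, these numbers were 9, 6, 31 and 4. The remaining genes in each direction fell in none of these classes. The 22 include AT1G04560 and TIP3;1, which were at 0 in every library outside line 15. Among the 152 and 84 genes, 82 of the higher and 57 of the lower overlap another listed feature, which leaves their values open to how reads were assigned. The genes were chosen by the comparison itself, so the counts describe them and test nothing.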

How the data were processed

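Whole-seedling RNA was sequenced from polyadenylated fragments in 12 libraries, and groups, lines and replicate numbers came from the sample titles. Per the submitters' processing notes, reads were trimmed with fastp, aligned to TAIR10 with HISAT2 2.0.0 and quantified with StringTie. The tables that the authors deposited give TPM (analysed here), FPKM (used as an alternative) and coverage signal (used for depth) per gene and TE. Strand and multi-mapping settings are not given in the sources used here.

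Because TPM are no counts, log2(TPM + 0.5) was modelled in limma 3.58.1 (R 4.3.3) over all 12 libraries with group coefficients and a trended eBayes, on the 23614 features, 39 of them organellar, that reached 0.5 TPM in 2 or more libraries. P-values were adjusted by Benjamini-Hochberg over all features. A feature was called where the adjusted p was under 0.05 and its log2 change was 1 or more in either direction. An exact permutation test of 2 against 2 libraries cannot give a p below 0.333. Intervals are 95% moderated intervals. The method was checked on data simulated with normal noise on log2 values. Such noise does not imitate values listed at 0, so the check does not cover the named calls. Tables and figures used Python 3.11.15, pandas 2.3.3 and matplotlib 3.10.9. Gene names, the coding site and the bases of the promoters came from RefSeq TAIR10.1, and promoters were placed by the deposited gene coordinates. Of 37572 nuclear gene IDs, 37560 matched RefSeq, 37549 with an identical start and 37559 with a start within 1000 bases of the deposited one.

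Named genes were CMT2, CMT3, the primer elements, the called genes with the largest changes (10 per direction without overlap, 4 with overlap), called TEs and up to 4 members of each of 23 lists with the largest changes. The comparison, members and lists were chosen with earlier results of these data known, and later additions are marked in the text. Results of 2 called genes are not reported here. Other pseudocounts, filters, units, normalizations, library subsets and a replicate block were tried.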

Additional observations from a re-analysis of the deposited data

Results flagged for a closer look

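In the direct comparison with limma, 3 named genes were called between the lines, each because one line was listed at 0. MTPB1 had a mean of 1.53 TPM in line 9 and was listed at 0 in line 15. AT1G04560 and TIP3;1 had means of 2.74 and 2.07 TPM in line 15 and were listed at 0 in line 9. MTPB1 and TIP3;1 overlap other features, and the part of read assignment in their values was not tested. AT1G04560 and TIP3;1 reached the minimum level only through line 15, so they had to differ to be tested and their calls are a description. The 3 calls were lost with the replicate block and in the 4 V1200R/cc libraries alone.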

How the results depend on the processing

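AT1G04560, TIP3;1 and MTPB1 each lost their calls under several alternatives. In place of 2 genes higher, 1 was called with a pseudocount of 1, with FPKM and with features that overlap nothing, and 0 with a mean of at least 1 TPM and with the replicate block. In place of 3 lower, 5 were called with a pseudocount of 0.1 and 0 with features that overlap nothing. In place of 0 TEs, 1 was called with a pseudocount of 0.1, in the 4 V1200R/cc libraries alone and without features that switch to 0 within a group. Leaving out 1 library at a time gave 0 to 14 genes higher, 2 to 9 lower and 0 to 2 TEs. Genes higher were 0 without line 9 replicate 1, 14 without line 9 replicate 2 and 4 without line 15 replicate 2. Genes lower were 9 without line 15 replicate 1 and 6 without line 15 replicate 2, and TEs were 2 without line 9 replicate 2 and 1 without either line 15 library. The CMT2 difference stayed between 0.27 and 0.44 and was never called. The sum for Copia89 moved between -0.37 and 0.0036 without 1 library and was never called. The sum for Copia47 was not called with the replicate block (adjusted p = 0.059), and Copia11 was (0.039), in alternatives chosen after seeing the data.

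Replicate numbers did not pair the libraries (r = 0.006 between the deviations of line 9 and line 15), so the replicate block, which called 2 genes in all, is given here only. Features below about 1 TPM rest on few reads, and 2 libraries per line limit what could be called.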
